A study of Mus musculus with 8 samples.

Results

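The plasminogen activators, their receptor, serpins and tissue factor genes measured in tumor stromal cells were Plat, Plau, Plaur, Serpine2, Serpinb2, Serpinf1, Serpinh1, F3 and Tfpi. They were chosen by name, as the entries of the deposited count table that carry these 9 gene names, and all 9 were found among the 53801 genes listed. The table gives RNA-seq read counts of mesenchymal cells sorted from MO5 tumors, which are subcutaneous grafts of a B16 melanoma line that expresses ovalbumin. The tumors grew in ADAM12-GFP mice, in which a bacterial artificial chromosome transgene expresses GFP under control of the Adam12 gene. Cells without the leukocyte marker CD45 and the endothelial marker CD31 and with podoplanin and PDGFRα were divided by the reporter into GFP+ (ADAM12+) and GFP- (ADAM12-) cells, with 4 libraries each. Both groups came from the same kind of tumor and carry the same transgene, so the comparison sets sorted ADAM12+ cells beside the other cells sorted as PDPN+PDGFRα+. The groups of libraries also differed in melanocyte and fibroblast marker RNA, as given below. Per the study's methods n stands for mice unless stated otherwise. The labels do not tie a library to an animal or say whether GFP+ and GFP- libraries with the same number came from the same mouse. The sort follows the reporter and not the Adam12 transcript.

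The plasminogen activators tPA (Plat) and uPA (Plau) are serine proteases that cut plasminogen into plasmin, which dissolves fibrin and degrades matrix proteins, and uPA acts at the cell surface when bound to its receptor uPAR (Plaur). Serpins of the inhibitory kind trap such proteases in an irreversible complex, whereas other members of the family have lost this activity. Tissue factor (F3) starts the coagulation cascade on the cell surface by binding factor VII, and tissue factor pathway inhibitor (Tfpi) blocks that step. Fibroblasts around vessels are a known site of tissue factor, and tumor stroma is known to deposit fibrin.

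Library totals ran from 883144 to 31666734 counts, and the lowest total by far was that of GFP- replicate 3. Values per library are given as normalised counts, which are read counts divided by the size factor of the library. Adam12 itself was 1362 ± 357 in GFP- and 2302 ± 484 normalised counts in GFP+ cells (SD, n = 4 each), so that its transcript was present in both groups. It was higher in GFP+ cells by 0.75 ± 0.24 on the log2 scale (SE; DESeq2 adjusted p = 0.0266). The adjusted p for Adam12 was under 0.05 in 11 of 16 alternative fits. All 8 fibroblast markers were detected, and 6 were higher (4 of them in 16 of 16 alternatives) and 0 lower in GFP+ cells. Their summed level was 253552 to 559288 normalised counts in GFP- and 666226 to 764372 in GFP+ libraries, and it was lowest in GFP- replicate 4. Melanocyte markers summed to 25480 to 74686 in GFP- and 4517 to 11858 in GFP+ libraries, and all 10 markers were detected and lower in GFP+ cells. Of these calls, 8 held in 16 of 16 alternatives, that of Oca2 in 8 and that of Trpm1 in 10. GFP- replicate 4 held the highest melanocyte sum. The grafted MO5 line is itself a melanoma, and the part of tumor cell RNA in these sums was not tested. Schwann cell markers summed to 637 to 1890 and 236 to 521, with 3 of 5 tested markers lower in GFP+ cells (1 of them in 16 of 16 alternatives) and Pmp2 at 0 in all libraries. Macrophage markers overlapped, at 1407 to 6977 in GFP- libraries (highest in replicate 3) and 1228 to 5417 in GFP+ libraries (highest in replicate 2), and 0 of 10 passed the test by DESeq2 or edgeR, with 0 at an unadjusted p under 0.05. Neutrophil markers summed to at most 69.8 in any library, with Ly6g at 0 in all. Endothelial, pericyte and keratinocyte marker sums also overlapped between the groups, although single markers differed. Of 6 tested endothelial markers 1 was called, Vwf, which was lower in GFP+ cells, with a log2 fold change of -3.30 ± 0.66 (DESeq2 adjusted p = 3.77e-05). Of the same 6, 3 had positive log2 fold changes, Kdr (1.14), Pecam1 (0.42) and Tek (0.09), and were not called. Of 6 tested pericyte markers, 5 had positive log2 fold changes. The remaining pericyte marker, Mcam, was lower in GFP+ cells, at -1.60 ± 0.37 (DESeq2 adjusted p = 0.000593). The pericyte marker Abcc9 was higher by 1.15 ± 0.41 on the log2 scale (DESeq2 adjusted p = 0.0493), which held in 7 of 16 alternatives. The part of these cell types in the results on the 9 genes was not tested. In such sorted bulk samples, fewer cells of a type and less RNA per cell cannot be told apart.

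Of the 9 genes, F3 and Serpinf1 were higher in GFP+ cells, by 2.51-fold and 1.93-fold. The other 7 did not pass the test in either direction, and Plat alone of them had an unadjusted p under 0.05 (0.0342 in DESeq2). Calls rest on an adjusted p under 0.05 from DESeq2, fitted over all genes, by which 4.66% of the 15283 genes tested were higher and 4.76% lower in GFP+ cells, so that 2 of 9 higher and 0 of 9 lower are to be read against these shares. All 9 log2 fold changes were positive, with a median of 0.40, beside 49.5% positive and a median of -0.01 over all genes tested. The log2 fold changes of the 8 fibroblast markers were all positive too, from 0.29 (Col1a1) to 1.32 (Pdgfra), with a median of 0.89. Beside these, F3 stood at 1.33 and Serpinf1 at 0.95. Whether these 2 changes go with a general change in fibroblast RNA was not tested. F3 and Serpinf1 were also the only members in which every GFP+ library lay above every GFP- library, a pattern found in 6.37% of all genes tested. Both were called in 16 of 16 alternative fits. Among these were edgeR, by which 2.84% of genes were called higher, limma, and the fits that left out single libraries. Leaving out GFP- replicate 3 called 4 members, with Plat and Plaur added, when 6.13% of all genes tested were called higher.

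**Figure D1:**
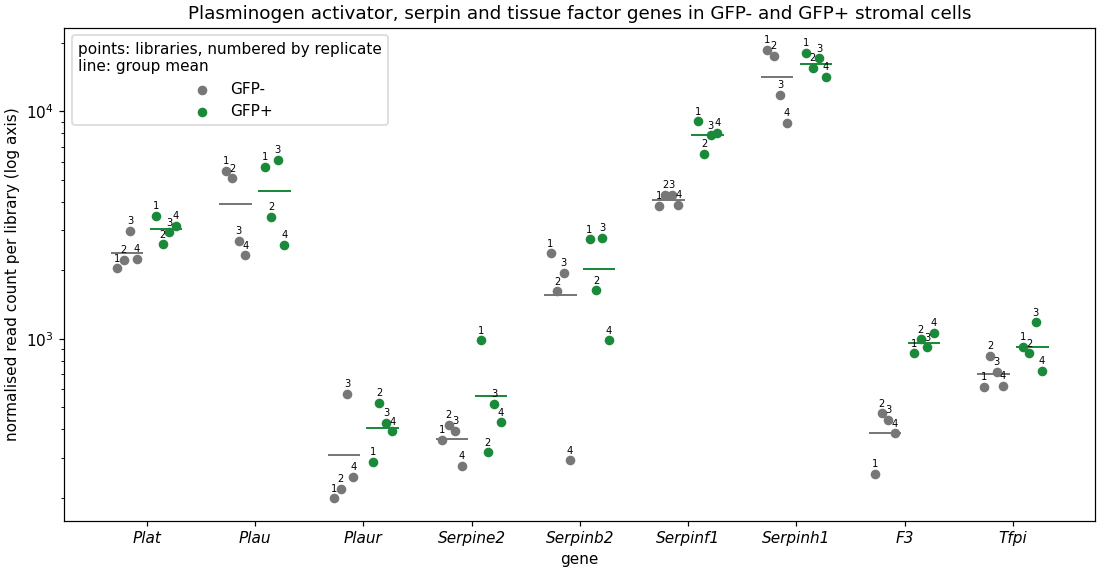
Normalised counts of the 9 genes on a log axis, with a point for each of the 4 GFP- and 4 GFP+ libraries and a line for the group mean. For F3 and Serpinf1 all GFP+ points lie above all GFP- points, and in the other 7 genes the points overlap.

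Plat, on chromosome 8 of GRCm38 (22757727 to 22782844, plus strand, ENSMUSG00000031538), encodes tPA, the activator best known from fibrin dissolution in vessels. Its normalised counts were 2039, 2229, 2989 and 2247 in GFP- replicates 1 to 4, and 3465, 2605, 2939 and 3146 in GFP+ replicates 1 to 4. The groups overlapped only through GFP- replicate 3, which lay above 2 of the GFP+ libraries. The log2 fold change was 0.37 ± 0.17 (SE), with a 95% interval of 0.03 to 0.71, and an adjusted p of 0.190 in DESeq2. Without GFP- replicate 3 it was 0.48 and passed the test, with a DESeq2 adjusted p of 0.0185.

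Plau, on chromosome 14 (20836660 to 20843385, plus strand, ENSMUSG00000021822), encodes uPA, the activator tied to cell migration and matrix breakdown. Normalised counts were 5470, 5079, 2703 and 2329 in the GFP- libraries, and 5712, 3444, 6124 and 2585 in the GFP+ libraries. Both groups held high and low libraries over much the same range. The difference on the log2 scale was 0.19 ± 0.34, with a 95% interval of -0.48 to 0.87 that includes 0 (DESeq2 adjusted p = 0.828). It ranged from 0.01 to 0.40 when single libraries were left out.

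Plaur, on chromosome 7 (24462484 to 24475968, plus strand, ENSMUSG00000046223), encodes uPAR, which anchors uPA to the membrane and is also abundant on myeloid cells. Normalised counts were 199, 219, 571 and 248 in GFP- and 287, 524, 427 and 393 in GFP+ libraries. GFP- replicate 3 stood above every other library, on a read count of 52, and the other 3 GFP- libraries lay below all GFP+ libraries. On the log2 scale the difference was 0.47 ± 0.35 (DESeq2 adjusted p = 0.485) with all libraries and 0.87 without GFP- replicate 3 (DESeq2 adjusted p = 0.0128). By limma it was 0.85 with an adjusted p of 0.0434, when 4.50% of genes were called higher. The libraries with the highest Plaur in each group, GFP- replicate 3 and GFP+ replicate 2, also held the highest macrophage marker sums, 6977 and 5417 normalised counts, and the part of macrophage RNA in Plaur was not tested.

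Among the inhibitors, Serpine2 (chromosome 1, 79794197 to 79861180, minus strand, ENSMUSG00000026249) encodes protease nexin-1, which inhibits thrombin as well as uPA and tPA. Its normalised counts were 359.5, 420.0, 395.5 and 275.8 in GFP- and 985, 318, 517 and 429 in GFP+ libraries. GFP+ replicate 1 was the high value, while GFP+ replicate 2 lay within the GFP- range. GFP+ cells differed by 0.64 ± 0.35 on the log2 scale (DESeq2 adjusted p = 0.289), and 0.24 without GFP+ replicate 1.

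Serpinb2 (chromosome 1, 107511423 to 107535478, plus strand, ENSMUSG00000062345) encodes PAI-2, an inhibitor of uPA that is mostly kept inside cells. Normalised counts were 2373, 1619, 1956 and 292.6 in GFP- and 2733, 1633, 2782 and 985 in GFP+ libraries. Replicate 4 was the lowest library of both groups. Its log2 fold change of 0.38 ± 0.65 had the largest SE of the 9, with a 95% interval of -0.89 to 1.66 (DESeq2 adjusted p = 0.819), and 0.04 without GFP- replicate 4. The gene shares 291 exon bases with Serpinb10 on the same strand, where the counting could drop or split reads.

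Serpinf1 (chromosome 11, 75409769 to 75422701, minus strand, ENSMUSG00000000753) encodes pigment epithelium-derived factor, a secreted serpin without protease inhibitor activity that is known as an inhibitor of angiogenesis. Normalised counts were 3841, 4286, 4285 and 3876 in GFP- libraries, within a narrow range, and 9036, 6492, 7851 and 8016 in GFP+ libraries. The lowest GFP+ library was above the highest GFP- library. The group means were 4072 ± 247 and 7849 ± 1045 (SD, n = 4 each), and the log2 fold change was 0.95 ± 0.15 (SE) with a 95% interval of 0.66 to 1.24 and an adjusted p of 1.77e-08 in DESeq2 and 0.00206 in edgeR. An exact two-sided permutation test over the 70 ways to divide 8 libraries gave p = 0.0286, the smallest this design allows. The log2 fold change ran from 0.89 to 1.03 when single libraries were left out, and was 0.93 without GFP- replicate 4. That library had the lowest fibroblast and highest melanocyte marker sums. The remaining GFP- libraries still lay apart from all GFP+ libraries in both sums, so leaving it out does not remove the marker differences.

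The sequence upstream of Serpinf1 is shown because the gene was higher in GFP+ cells. It holds none of the 3 motifs searched on both strands, which were the AP-1 site TGANTCA, the TATA box TATAAA and the GC box GGGCGG. The RefSeq (GRCm38.p6) bases at chr11:75422702-75422873, read on the minus strand and ending where the annotated gene begins, are as follows.
Serpinf1: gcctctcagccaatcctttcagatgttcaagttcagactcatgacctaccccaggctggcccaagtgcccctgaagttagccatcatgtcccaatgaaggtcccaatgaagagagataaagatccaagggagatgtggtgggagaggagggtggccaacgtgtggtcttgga

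Serpinh1 (chromosome 7, 99345376 to 99353239, minus strand, ENSMUSG00000070436) encodes HSP47, a collagen chaperone of the endoplasmic reticulum that does not inhibit proteases. Normalised counts were 18561, 17469, 11844 and 8869 in GFP- and 18101, 15550, 17060 and 14128 in GFP+ libraries. The low values were those of GFP- replicates 3 and 4, and the other 6 libraries shared one range. Between the groups the log2 difference was 0.19 ± 0.24 (DESeq2 adjusted p = 0.727), and 0.02 without GFP- replicate 4.

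F3 (chromosome 3, 121723537 to 121735048, plus strand, ENSMUSG00000028128), which encodes tissue factor, showed the largest log2 fold change of the 9 genes. Normalised counts were 255, 471, 439 and 384 in GFP- and 864, 996, 918 and 1066 in GFP+ libraries. The GFP+ libraries lay close together, and the lowest of them was above the highest GFP- library. The means were 387 ± 95.2 and 961 ± 88.7 (SD, n = 4 each). The log2 fold change was 1.33 ± 0.23 (SE), with a 95% interval of 0.88 to 1.77 and an adjusted p of 5.85e-07 in DESeq2 and 0.00303 in edgeR, and the exact permutation test gave p = 0.0286. The GFP- replicate 3 value rests on 40 reads. Without single libraries the log2 fold change stayed between 1.16 and 1.46, and it was 1.33 without GFP- replicate 4.

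The sequence upstream of F3 is shown because the gene had the largest change and holds 2 matches to the AP-1 site, which are in capitals. AP-1 is the dimer of Fos and Jun proteins that responds to growth factors and stress. The matches lie 146 and 135 bases before the start of transcription in the RefSeq (GRCm38.p6) bases at chr3:121723287-121723536, plus strand.
F3: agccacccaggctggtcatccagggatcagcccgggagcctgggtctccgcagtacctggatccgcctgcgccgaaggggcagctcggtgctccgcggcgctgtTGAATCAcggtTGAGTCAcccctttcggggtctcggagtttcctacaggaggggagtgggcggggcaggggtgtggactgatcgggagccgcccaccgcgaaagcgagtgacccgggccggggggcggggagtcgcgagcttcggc

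A RefSeq window from 250 bases before to 50 bases after the start was found for 7 of the 9 genes, which did not include Plat and Plau. AP-1 matched in 3 of these 7, F3, Plaur and Serpinb2, and in 8.97% of all 27025 genes with a window (7.81% of all 32851 windows of the same 300 bases). The TATA box matched in 3 of the 7 and in 15.7% of all these genes, and the GC box in 5 of the 7 and in 38.2%. A gene can have several windows, and the 7 genes had 9. No AP-1 match overlapped a match of another motif. F3 was called higher and Plaur and Serpinb2 were not, so an AP-1 match was found both in a gene that passed the test and in genes that did not. The Plaur site lies 69 bases before its start within chr7:24462403-24462432 and the Serpinb2 site lies 94 bases before its start within chr1:107511318-107511347, both on the plus strand and printed for comparison with F3.
Plaur: acccctggagcTGACTCActctttagcaaa
Serpinb2: gagtaaaatgtTGAATCAtacaaagaatac

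Tfpi (chromosome 2, 84432855 to 84476775, minus strand, ENSMUSG00000027082) encodes the inhibitor of tissue factor. Normalised counts were 617, 844, 714 and 621 in GFP- and 925, 864, 1182 and 723 in GFP+ libraries. GFP+ replicate 4 lay within the GFP- range and the other 3 GFP+ libraries lay above it. Its log2 fold change was 0.40 ± 0.22, with a 95% interval of -0.02 to 0.83 (DESeq2 adjusted p = 0.274), and the exact permutation p was 0.0571. The ratio of F3 to Tfpi read counts was 0.413, 0.558, 0.615 and 0.618 in GFP- and 0.934, 1.15, 0.776 and 1.47 in GFP+ libraries. The groups did not overlap in this ratio, which is not corrected for transcript length and whose means were 0.551 ± 0.0960 and 1.08 ± 0.302 (SD, n = 4 each). It was built from F3, whose change is given above, and was not tested on its own.

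**Figure D2:**
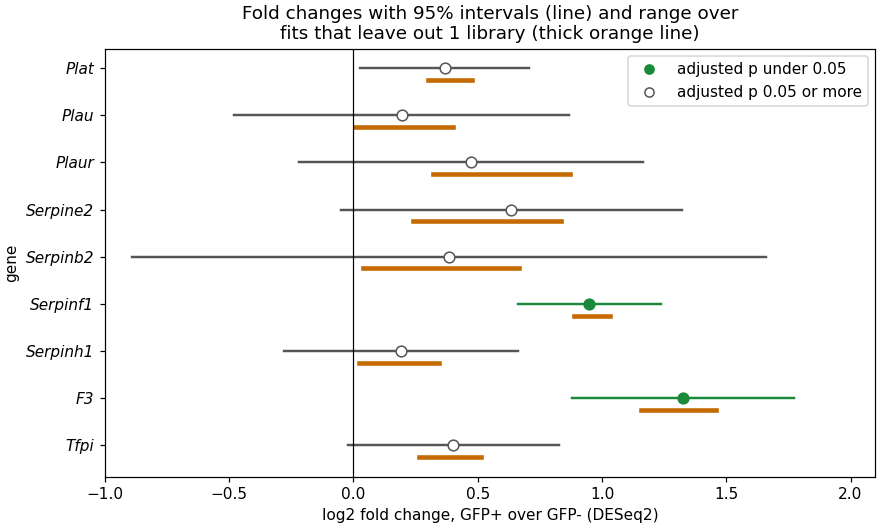
DESeq2 log2 fold changes (GFP+ over GFP-) of the 9 genes, with thin lines for 95% intervals, thick orange lines for the range when single libraries are left out, and filled points for an adjusted p under 0.05. The F3 interval (0.88 to 1.77) and the Serpinf1 interval (0.66 to 1.24) lie farthest from 0, and that of Serpinb2 is the widest.

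The ratios of the activator uPA to its partners overlapped between the groups. The ratio of Plau to Plat reads ran from 0.904 to 2.68 in GFP- and from 0.822 to 2.08 in GFP+ libraries. That of Plau to Plaur ran from 4.73 to 27.4 and from 6.57 to 19.9, and that of Plau to Serpinb2 from 1.38 to 7.96 and from 2.09 to 2.62. The ranges of the groups overlapped in all 3 ratios, which were not tested.

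Levels were compared between genes only per length, as normalised counts per kilobase of annotated exon. The collagen chaperone Serpinh1 was the highest in both groups, at 5807 ± 1886 in GFP- and 6635 ± 712 in GFP+ cells. Serpinf1 came next, at 1726 ± 105 in GFP- cells, where it did not separate from Plau at 1646 ± 679. In GFP+ cells Serpinf1 stood at 3327 ± 443, and all its libraries lay above those of Plau at 1887 ± 727. Plau, Serpinb2 and Plat followed in this order, with libraries of neighbouring genes overlapping. F3 was 153 ± 37.7 in GFP- cells, where it overlapped with Tfpi at 128 ± 19.5, and 380 ± 35.1 in GFP+ cells, where it overlapped with Plat at 487 ± 57.8 and all its libraries were above those of Tfpi at 169 ± 35.2. Plaur was 118 ± 67.1 and 156 ± 37.3, and the lowest of the 9 was Serpine2 at 43.8 ± 7.61 and 67.8 ± 35.4 (all SD, n = 4). Plaur overlapped with Tfpi in both groups, and with Serpine2 in GFP+ cells.

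Among the GFP- libraries, replicate 1 was the lowest in 5 of the 9 genes (Plat, Plaur, Serpinf1, F3 and Tfpi) and replicate 4 in the other 4 (Plau, Serpine2, Serpinb2 and Serpinh1). GFP- replicate 4 was also the library with the lowest fibroblast and the highest melanocyte marker sums, and the part of these in the 4 genes was not tested. Among the GFP+ libraries, replicate 4 was the lowest in 4 genes, replicate 2 in 3 and replicate 1 in 2. No single library was therefore low across all 9 genes.

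**Figure D3:**
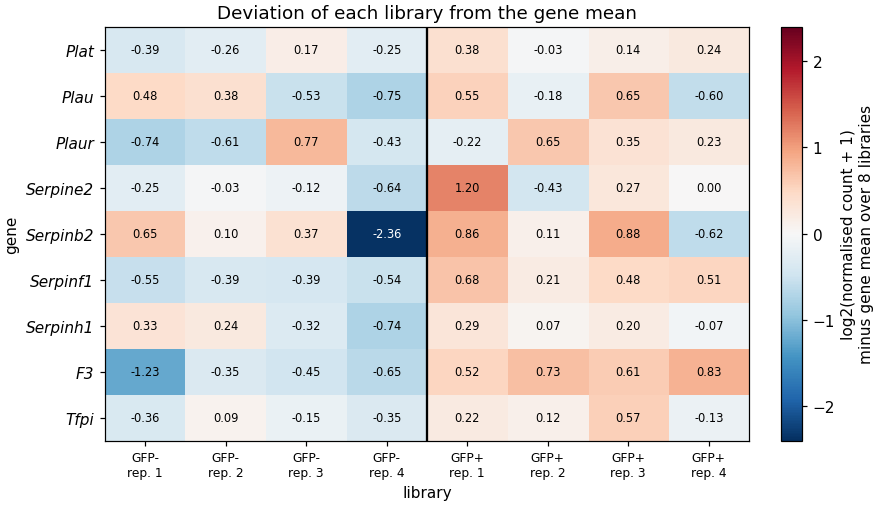
Centred log2(normalised count + 1) of the 9 genes (lines) in the 8 libraries (columns), in which each gene is shown relative to its own mean over the libraries. F3 and Serpinf1 change sign between the GFP- and GFP+ libraries, and the strongest low value is that of Serpinb2 in GFP- replicate 4.

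The genes with the pattern nearest to that of F3 over the 8 libraries, by the root mean square difference of centred log2 values among 8811 genes, were Itm2a (0.202), Peg3 (0.205) and Srpx (0.218). Their log2 fold changes were 1.35, 1.46 and 1.37. The nearest to Serpinf1 were Itih5 (0.101), Dpt (0.105), which encodes the matrix protein dermatopontin, and Adamts5 (0.110), which encodes an aggrecan-cleaving protease. Their log2 fold changes were 1.05, 0.83 and 0.75. These distances are descriptions over libraries that share their depth and group, with no test.

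The other genes of plasminogen activation, coagulation and the serpin family, 98 in all, gave 45 with an adjusted p. GFP+ cells were higher in 6 of these and lower in 3, against 9.42% of all genes called in either direction. Their log2 fold changes were positive in 32 and negative in 13, with a median of 0.64. By edgeR, 5 of them were called, against 5.13% of all genes in either direction.

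In the plasminogen system, 2 of 11 tested genes were higher and 1 was lower. Lrp1, the endocytic receptor that clears protease-inhibitor complexes, rose from 31327 ± 4174 to 56847 ± 9521 normalised counts, a log2 fold change of 0.86 ± 0.18 (DESeq2 adjusted p = 5.04e-05). Mrc2, the collagen receptor also named uPAR-associated protein, was higher by 0.64 ± 0.21 on the log2 scale (DESeq2 adjusted p = 0.0264). It missed the threshold in edgeR (adjusted p = 0.0613) and without GFP- replicate 2 or GFP+ replicates 1, 2 or 3, where the DESeq2 adjusted p ran from 0.0612 to 0.0865. Eno1, a glycolytic enzyme that can also bind plasminogen at the cell surface, fell from 1457 ± 470 to 439 ± 63.4, a log2 fold change of -1.74 ± 0.26 (DESeq2 adjusted p = 2.83e-09). The GFP- libraries with the highest and lowest Eno1, replicates 4 (1960) and 3 (824), also held the highest and lowest melanocyte marker sums of that group. The part of that RNA in Eno1 was not tested. The plasminogen-binding pair Anxa2 and S100a10 gave 0.34 (DESeq2 adjusted p = 0.348) and 0.64 (adjusted p = 0.0568), and S100a10 passed in 5 of 16 alternatives. Plasminogen itself (Plg) had at most 6 reads in any library.

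Of the coagulation factors, 5 of 15 had an adjusted p and 0 passed the test by DESeq2 or edgeR, with 1 at an unadjusted p under 0.05. That was F7, the factor VII that tissue factor binds, chosen for mention after its values were seen. Its read counts were 30, 21, 1 and 16 in GFP- and 0, 2, 7 and 0 in GFP+ libraries. The adjusted p was 0.0689 in DESeq2 and 0.177 in edgeR, and 2 of the 14 alternatives that gave one called it lower, among them the fit without GFP+ replicate 3 (DESeq2 adjusted p = 0.00643). Of the anticoagulant genes, Pros1, which encodes the cofactor protein S, was higher in GFP+ cells, at 1445 ± 209 and 2455 ± 251 normalised counts, with a log2 fold change of 0.77 ± 0.17 (DESeq2 adjusted p = 0.000201). The other 5 tested did not pass, including thrombomodulin (Thbd), at 0.32, and the protein C receptor (Procr), at 0.53. The thrombin receptor F2r, the only protease-activated receptor with an adjusted p in DESeq2 with all libraries, gave -0.51 (DESeq2 adjusted p = 0.679).

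Among 58 other serpins 22 had an adjusted p, of which 3 were higher and 2 lower. Serping1, the C1 inhibitor of the complement and contact systems, was 11571 ± 927 in GFP- and 23560 ± 3500 in GFP+ cells, a log2 fold change of 1.03 ± 0.16 (DESeq2 adjusted p = 7.02e-09). Serpinb1a, an inhibitor of neutrophil proteases, was 202 ± 132 and 664 ± 106, a log2 fold change of 1.79 ± 0.41 (DESeq2 adjusted p = 0.000492). The groups did not overlap in either gene. Serpinb6a was higher by 0.75 ± 0.26 (DESeq2 adjusted p = 0.0461), which held in 7 of 16 alternatives, and Serpina3c was lower, at 254 ± 84.0 in GFP- and 129 ± 35.3 in GFP+ cells (DESeq2 adjusted p = 0.0287), in 8 of 16. Serpinb6a was lost without any of GFP- replicates 2, 3 and 4 or GFP+ replicates 1, 2 and 3 (DESeq2 adjusted p = 0.0662 to 0.177), and Serpina3c without GFP- replicates 1, 2 or 4 or GFP+ replicates 1 or 2 (0.0731 to 0.161). The pseudogene Serpina3e-ps had 93, 39, 0 and 8 reads in the GFP- and 0, 0, 0 and 1 in the GFP+ libraries. Serpinb1a, Serpinb6a, Serpina3c and Serpina3e-ps belong to families of related serpins, between which reads may be split. How alike their sequences are was not measured, and their values are uncertain to that extent.

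**Figure D4:**
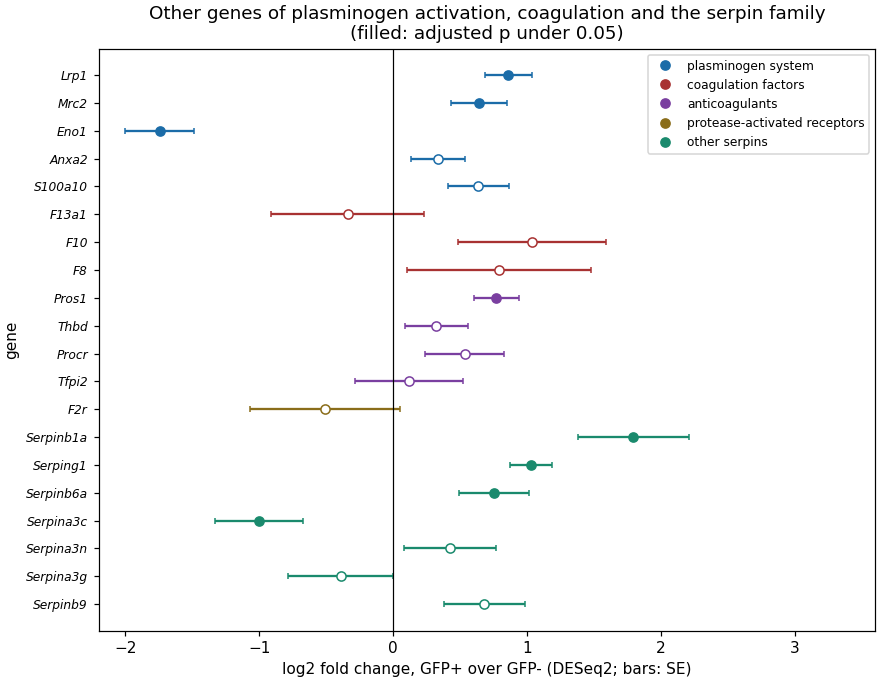
DESeq2 log2 fold changes (GFP+ over GFP-) with SE bars of the other named genes of plasminogen activation, coagulation and the serpin family, colored by list and filled where the adjusted p was under 0.05. The pseudogene Serpina3e-ps, for which only read counts are given, is not drawn. Of the genes drawn, Serpinb1a (1.79) and Serping1 (1.03) lie farthest to the right among filled points and Eno1 (-1.74) farthest to the left.

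The fits with other tools and with single libraries left out kept F3 and Serpinf1 past the threshold in every case. For F3 the DESeq2 adjusted p without single libraries ran from 6.05e-07 to 6.84e-05, and for Serpinf1 from 8.91e-10 to 7.45e-06. Plau, Serpine2, Serpinb2, Serpinh1 and Tfpi passed in 0 of 16 alternatives, Plat in 1 and Plaur in 2.

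**Figure D5:**
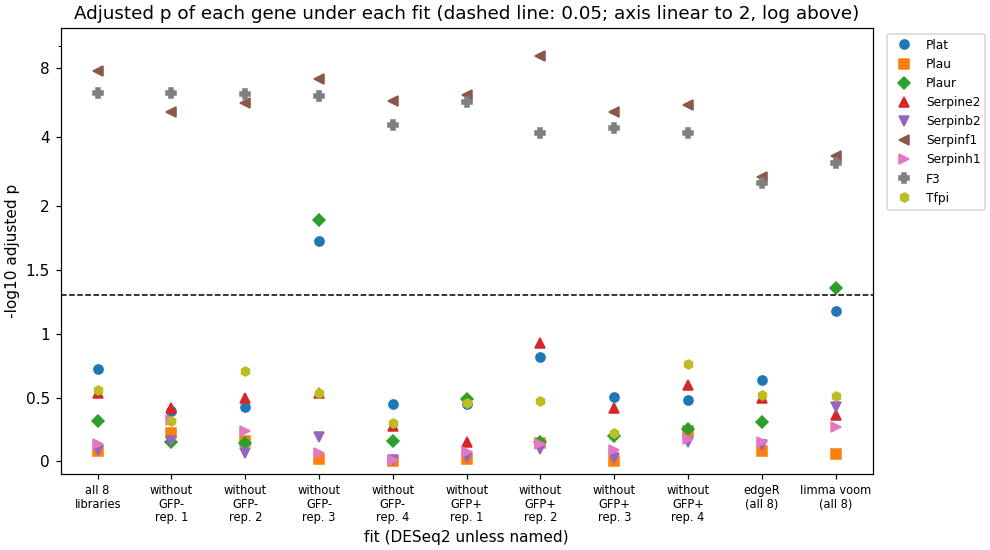
Negative log10 of the adjusted p of each gene with all 8 libraries, without each library in turn, and by edgeR and limma, with a dashed line at an adjusted p of 0.05 and an axis that is linear to 2 and logarithmic above. F3 and Serpinf1 lie above the line in every fit, and Plat and Plaur cross it without GFP- replicate 3.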

How the data were processed

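The 4 GFP+ and 4 GFP- libraries were grouped by the labels. Per the labels and the study's methods, the authors made stranded total RNA libraries, trimmed reads with cutadapt 3.4, mapped them to GRCm38 with STAR 2.7.3a and counted them per Ensembl gene by strand with featureCounts 2.0.1. The authors deposited raw counts per gene and library, which were used for every value here, and a normalised score per library, the count divided by a DESeq2 size factor, which was used only to check the size factors. Deposited fold changes and p-values were not used, and 0 per-sample columns were left unused. Reads matching several genes can be lost or split, and depth (883144 to 31666734 counts) limits GFP- replicate 3 most.

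DESeq2 1.42.0 in R 4.3.3 was fitted to all genes with a count, with group as the only term, Wald tests and Benjamini-Hochberg adjustment over 15283 genes. A call needed an adjusted p under 0.05. Replicates of a group differed by more than sampling noise. Alternatives were edgeR 4.0.16, limma 3.58.1, other size factors and filters, a replicate block, each library left out and exact permutation tests on log2(normalised count + 1). Scripts were tested on simulated data. Coordinates came from GENCODE, in which 99.82% of identifiers were found, and promoter windows from RefSeq.

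The members and lists were chosen with earlier results of these data known. Named were all 9 members, every called gene of the pathway lists and other serpins, the 3 genes per list with the highest mean that were not called, and the 3 genes nearest in pattern to called members (mean of at least 100 normalised counts). F2rl1 and F2rl3 had no adjusted p in DESeq2 with all libraries, and of the coagulation factors the rule named F13a1 (log2 fold change -0.34), F10 (1.04) and F8 (0.79), of the anticoagulants also Tfpi2 (0.12), and of the other serpins Serpina3n (0.43), Serpina3g (-0.39) and Serpinb9 (0.68). One gene that the lists and the rule include is counted with its list and is not reported here.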

Additional observations from a re-analysis of the deposited data

Results flagged for a closer look

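Plaur in GFP- replicate 3 stood at 571 normalised counts, far from the other 3 GFP- libraries at 199 to 248. Its gap to the nearest of them was 0.870 of the whole range of the group, above Dixon's 95% limit for 4 values. Of 18 groups of 4 libraries examined for the 9 genes, 1 passed this limit, and chance passes about 1 in 20. The value rests on 52 reads in the library with the fewest counts. The same library had the highest macrophage marker sum, 6977 normalised counts, and the part of either in the Plaur value was not tested.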

How the results depend on the processing

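The count of all genes called, 1439, was 734 by edgeR and 844 at an adjusted p under 0.01, and ran from 969 to 1837 when single libraries were left out. Of the 9 members 2 were called, and from 2 to 4 without single libraries, with 4 only without GFP- replicate 3. Of the other pathway genes and serpins 9 were called, 5 by edgeR, and from 5 to 11 without single libraries, with 5 without GFP- replicate 2. For the 9 members no log2 fold change reversed, 141 values kept their direction and side of the threshold, and 3 newly passed it (Plat and Plaur without GFP- replicate 3, and Plaur by limma). Among the 22 named pathway genes and serpins 22 values no longer passed (Mrc2, Serpina3c and Serpinb6a) and 9 newly passed (S100a10, F7, Serpina3g and Serpinb9). There 6 values reversed, all of genes that were not called: F13a1 to 0.14 by limma and 0.34 without GFP- replicate 3, F2r to 0.23 by limma, and Tfpi2 to -0.03 without GFP- replicate 3, -0.15 without GFP- replicate 4 and -0.03 without GFP+ replicate 3. Without single libraries F13a1 ran from -1.15 to 0.34 and Tfpi2 from -0.15 to 0.50. These tallies leave out F2rl1 and F2rl3, which had no adjusted p in DESeq2 with all libraries, and F2rl1 went from a log2 fold change of 0.79 to as low as -0.39 without a single library. Adam12, Abcc9, Oca2 and Trpm1 no longer passed in 28 values. The causes were not tested. Other size factors, edgeR and limma moved the median log2 fold change of all genes by at most 0.016.

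The replicate numbers were not treated as pairs, since no source says that they mark shared mice. The correlations of deviations between libraries of the same number were 0.152, -0.146, -0.125 and 0.236 over 14173 genes, with 4 of 8 libraries nearest to their own number. These mixed values do not settle whether the numbers mark pairs. With the replicate block 1492 genes, 2 members and 10 other pathway genes were called. The block added S100a10 (DESeq2 adjusted p = 0.000251) and F7 (0.0215) and lost Serpina3c (0.0845). The depth of GFP- replicate 3 limits the precision of Serpine2 (36 reads), F3 (40 reads) and Plaur (52 reads) there.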
